A study of Mus musculus with 12 samples.

Results

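Pck1, G6pc and Ppargc1a are 3 genes of hepatic glucose production whose CREB sites were followed through the deposited ChIP-seq peak lists of fasted and re-fed mouse liver. A site was counted as a member when its listed interval contained a CREB peak centre assigned to one of these genes in the gene table published with the data. This rule found 5 of 7547 sites, with 3 at Pck1, 2 at Ppargc1a and 0 at G6pc. CREB was immunoprecipitated from whole livers of male C57BL/6J mice aged 8 to 12 weeks, and both its phosphorylated and unphosphorylated forms were targets of the antibody. The 5 fasted mice had no food for 24 hours and were sampled at ZT3 (zeitgeber time, hours after lights on), and the 5 re-fed mice had the same fast followed by 2 hours of food and were sampled at ZT5. Time of day therefore differed together with feeding, and their effects cannot be told apart in these lists. Each mouse was a separate animal, but peaks were called on the pooled reads of each condition, so the lists give no value of a single mouse and no test over mice was made here. The lists hold CREB peaks from a mixture of liver cells, and they contain no expression marker with which to check the tissue.

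Gluconeogenesis is the synthesis of glucose from lactate, glycerol and amino acids, by which the liver maintains blood glucose during a fast. Pck1 encodes cytosolic phosphoenolpyruvate carboxykinase, which converts oxaloacetate to phosphoenolpyruvate. G6pc encodes the catalytic subunit of glucose-6-phosphatase, which releases free glucose at the end of the pathway, and Ppargc1a encodes PGC-1α, a transcriptional coactivator of both genes. Glucagon raises cAMP in hepatocytes, protein kinase A then phosphorylates CREB, and CREB recognises the cAMP response element (CRE), a palindrome of which one arm is often sufficient for binding.

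The sequences before the transcription start are shown because the CRE letters in them differ among the 3 genes. They are the 250 bases before the annotated start in RefSeq (GRCm38.p6), written 5′ to 3′ on the strand of the gene, and the capitals mark matches to the CRE or, for G6pc, the closest letters to it. Their coordinates are chr2:173152823-173153072 on the plus strand for Pck1, chr11:101367466-101367715 on the plus strand for G6pc and chr5:51567726-51567975 on the minus strand for Ppargc1a.
Pck1: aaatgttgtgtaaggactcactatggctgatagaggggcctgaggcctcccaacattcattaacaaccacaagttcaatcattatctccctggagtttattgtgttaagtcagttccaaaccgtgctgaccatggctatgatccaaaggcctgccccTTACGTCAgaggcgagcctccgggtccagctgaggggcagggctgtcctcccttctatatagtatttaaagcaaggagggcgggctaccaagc
G6pc: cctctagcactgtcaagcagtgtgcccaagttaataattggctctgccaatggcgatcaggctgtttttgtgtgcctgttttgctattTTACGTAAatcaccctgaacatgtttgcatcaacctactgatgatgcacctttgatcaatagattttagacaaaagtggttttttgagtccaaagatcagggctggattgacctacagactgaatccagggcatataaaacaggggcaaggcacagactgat
Ppargc1a: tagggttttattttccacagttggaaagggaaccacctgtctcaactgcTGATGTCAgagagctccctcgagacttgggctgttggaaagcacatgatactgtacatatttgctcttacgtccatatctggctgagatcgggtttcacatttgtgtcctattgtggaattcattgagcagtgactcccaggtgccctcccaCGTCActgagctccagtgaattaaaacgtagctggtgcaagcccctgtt

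The search covered the palindrome TGACGTCA with at most 1 mismatch and its arms TGACG and CGTCA, on both strands, in windows reaching from 250 bases before to 50 bases after the start. In the Pck1 window TTACGTCA lay from −93 to −86 relative to the start and differed from the palindrome by G2T, counted from 1 at its 5′ end. The exact arm CGTCA from −90 to −86 was part of the same match. The Ppargc1a window held TGATGTCA from −201 to −194, which differed by C4T, and a separate exact arm CGTCA from −49 to −45. The G6pc window held none of these letters, and the closest match there was TTACGTAA from −162 to −155, with 2 mismatches, G2T and C7A. It therefore shared the G2T substitution with the Pck1 match. A match with at most 2 mismatches was common, as 61.1% of 32851 promoter windows held one. The exact letters TTACGTAA, picked from the G6pc window itself, occurred in 39 windows (0.119%). A single exact string is rarer than a class of strings by construction, so this does not set the G6pc letters apart. Among the same windows, 20.8% held TGACG or CGTCA, 12.5% held TGACGTCA with at most 1 mismatch and 1.79% held it exactly. These letter matches are a description of the windows and not a measurement of binding.

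Height is given in RPM, the largest stack of extended reads within a peak, scaled to the sequencing depth of the pool. Both lists carry the fasted height of a site, on whose scale 1 read equals 0.0236 RPM. Intervals of heights are Poisson intervals at 95% that take the stack in reads as a count. The stack is a maximum within the peak and not a count, so they are approximate, and they cover counting error only. The number in each deposited peak name ranks the sites by their height averaged over the conditions, with 1 as the highest. Coordinates of sites are those of the lists (mm8).

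All 5 member sites were called in the fasted list, which holds 90.6% of all sites, and 4 were called in the re-fed list, which holds 71.0%. The paper reports more reads for the re-fed pool but fewer peaks before filtering, so the calls compare pools of unlike depth. The 3 sites of Pck1 and 1 of the sites of Ppargc1a were called in both lists, against 61.5% of all sites, and the remaining Ppargc1a site was called in the fasted list only. With 5 sites, these counts are a description and not a test. The fasted heights of the members ran from 0.567 to 0.991 RPM, with a median of 0.708 RPM that equalled the median of all sites. They are thus sites of ordinary height in this list, whose highest peak held 576 reads against 24 to 42 reads at the members.

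Pck1 had a site at its start and a pair of sites upstream. The start site spanned 172795861 to 172795971 on chromosome 2, from −150 to −40 relative to the Pck1 transcript start, with its centre at −95. Its fasted height was 0.968 RPM (41 reads, 0.695 to 1.31 RPM), and 66.7% of all sites were lower. The TTACGTCA match shown above fell within this span when the starts of the builds are set against each other. That alignment of starts is approximate, because the annotated transcript is 6181 bp in mm8 and 6202 bp in GRCm38.

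The nearer upstream site of Pck1 spanned 172791074 to 172791193 on chromosome 2, with its centre at −4878 relative to the start. It reached 0.708 RPM in the fasted pool (30 reads, 0.478 to 1.01 RPM), with 49.8% of all sites lower. The far upstream site spanned 172789781 to 172789959, with its centre at −6141, and reached 0.567 RPM (24 reads, 0.363 to 0.843 RPM), with 29.8% of all sites lower. The start site was thus 1.71-fold higher than the far upstream site and 1.37-fold higher than the nearer one, and the nearer was 1.25-fold higher than the far one. The listed heights were lower farther from the start, with overlapping counting intervals at all 3 sites, and their order was not tested.

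The centres of the upstream pair were 1263 bp apart, and the start site was 4783 bp from the nearer of them. Each Pck1 site therefore had 2 other sites within 10 kb, and 4.81% of all 7547 sites had at least as many. Together the 3 sites summed to 2.24 RPM. Within 50 kb of any member, no CREB site was listed other than those of the same gene.

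Ppargc1a had 2 sites, with unlike listed heights and unlike calls. The site at 51834023 to 51834133 on chromosome 5 reached 0.991 RPM (42 reads, 0.715 to 1.34 RPM), the highest of the 5 members, and it was the one called in the fasted list only. The other spanned 51842169 to 51842334 and was called in both lists at 0.567 RPM (24 reads, 0.363 to 0.843 RPM). The fasted-only site was 1.75-fold higher than the shared site, with overlapping counting intervals. Whether these heights differed was not tested, as they come from 1 pool.

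The centres of the Ppargc1a sites were 8173 bp apart. Ppargc1a lies on the minus strand in RefSeq, so the shared site, at the larger coordinate, is on the 5′ side of the fasted-only site. Their position relative to the exons and starts of the gene was not analysed here, since the rows used for this gene give peak centres and no mm8 gene coordinates. For the same reason it was not established whether the promoter window shown above includes either site. The paper describes binding of CREB at the promoter and within an intron of this gene, and these were not matched to the listed sites here.

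**Figure D1:**
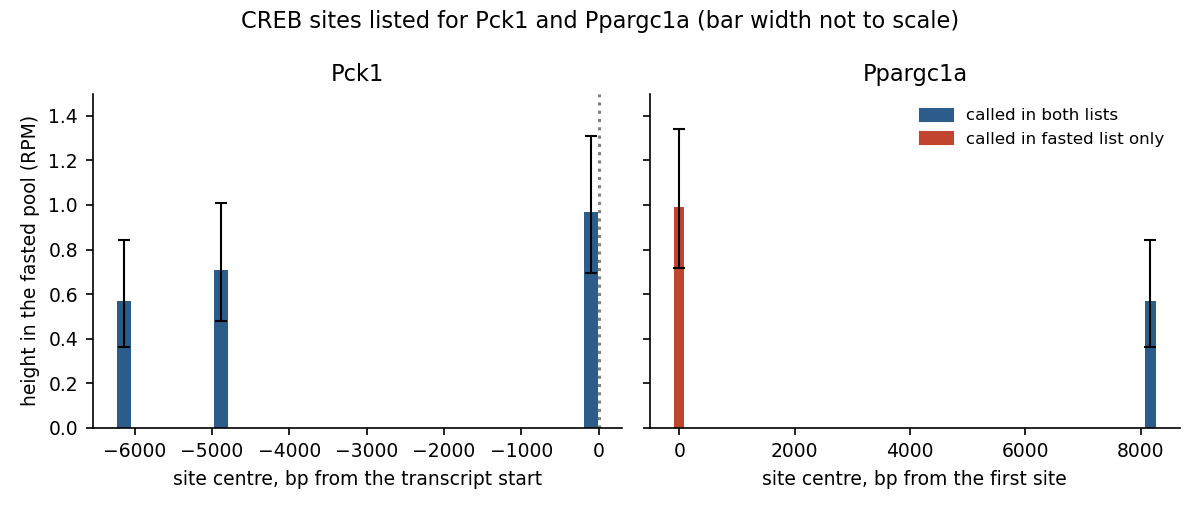
Fasted height in RPM (vertical axis) of the CREB sites of Pck1, against distance in bp from the transcript start (dotted line), and of Ppargc1a, against distance in bp from the first site. Bars are coloured by call and error bars are approximate Poisson intervals at 95%: the Pck1 sites measured 0.567, 0.708 and 0.968 RPM from left to right, and the Ppargc1a sites 0.991 RPM (fasted only) and 0.567 RPM.

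The rank in the peak name carries information on the re-fed pool that the height column does not. Among sites of the same fasted height, an earlier rank means a re-fed height at least as high. The far upstream site of Pck1 ranked 4193, ahead of 262 (88.8%) of the 295 other sites at 0.567 RPM, whose median rank was 5332. The shared site of Ppargc1a, at the same fasted height, ranked 4270 and was ahead of 254 (86.1%) of them. The nearer upstream site of Pck1 ranked 3242, ahead of 167 (84.3%) of the 198 other sites at 0.708 RPM. In these 3 sites the re-fed height was thus on the high side for the listed fasted height. All 3 had a re-fed call. Of all sites at their heights, 40.5% (0.567 RPM) and 55.8% (0.708 RPM) were called in both lists. Place and call are therefore not separate observations, and no comparison among shared sites of equal fasted height was made.

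The start site of Pck1 and the fasted-only site of Ppargc1a were placed otherwise. The Pck1 start site ranked 2657 and was ahead of 32 (36.8%) of the 87 other sites at 0.968 RPM. The fasted-only site of Ppargc1a ranked 2844 and was ahead of only 5 (8.47%) of the 59 other sites at 0.991 RPM, whose median rank was 2410. By rank, its re-fed height was among the lowest of the sites that matched it in the fasted pool. It also lacked a re-fed call, which 86.7% of the sites at that height had, so its place and call are not separate observations. These places take the listed heights as they are, and the counting error of 24 to 42 reads at each member was not carried into them.

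A complementary comparison held the average constant. Of the 200 sites nearest in rank, 100 on each side, 181 (90.5%) were lower in the fasted pool than the fasted-only Ppargc1a site, and at a like average a higher fasted height means a lower re-fed height. Of all 7547 sites, 7.84% had a share of at least 90%. The share was 65.5% at the Pck1 start site. It was 25.0% at the nearer and 15.0% at the far upstream site of Pck1, and 19.0% at the shared site of Ppargc1a. The counting interval of each member included the median of its 200 sites, and that of the fasted-only Ppargc1a site (0.715 to 1.34 RPM) covered their range from the 5th to the 95th percentile (0.731 to 1.02 RPM), so the place of a member among them was not resolved at this depth. A share no higher than that of the nearer upstream site was found at 28.8% of the sites called in both lists. The median share was 42.0% for sites called in both lists and 66.5% for sites called in the fasted list only.

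**Figure D2:**
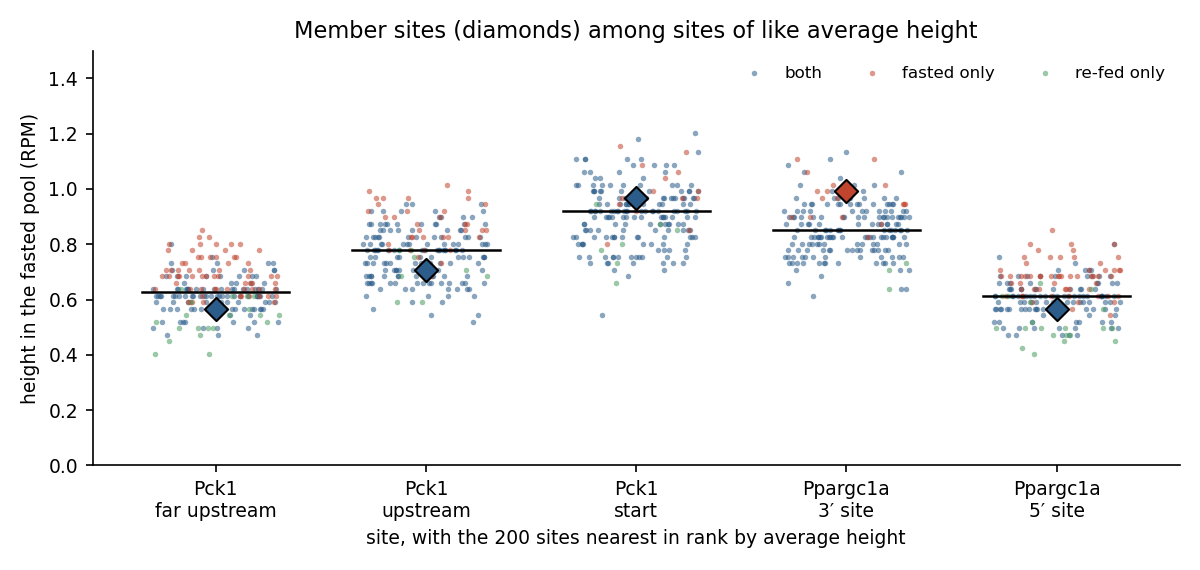
Fasted height in RPM (vertical axis) of each member site (diamond) and of the 200 sites nearest to it in rank by average height (points, spread sideways for visibility, coloured by call), with the median of those sites as a line. The fasted-only Ppargc1a site lay above its line (0.991 against 0.850 RPM), and the upstream Pck1 sites (0.567 against 0.626 and 0.708 against 0.779 RPM) and the shared Ppargc1a site (0.567 against 0.614 RPM) lay below theirs.

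Calls were also set beside those of sites of like rank. Near the fasted-only Ppargc1a site, 180 of the 200 sites nearest in rank (90.0%) were called in both lists, and 17 (8.50%) were called in the fasted list only. The 17 had a median fasted height of 0.968 RPM, and 10 of them were lower than the Ppargc1a site. The absence of a re-fed call was thus the less frequent outcome at its rank. It does not show an absence of CREB, because a call also required the peak to be found in every pool of 4 livers.

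At the Pck1 start site 179 of 200 sites of like rank (89.5%) were called in both lists, and at the nearer upstream site 154 (77.0%). Sharing was less frequent around the lower members, with 112 (56.0%) at the far upstream site of Pck1 and 120 (60.0%) at the shared site of Ppargc1a. At equal fasted height the shares were lower still, as 40.5% of the 296 sites at 0.567 RPM were called in both lists. Both members of that height had a re-fed call.

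The rank also set a lower bound on the re-fed height, because no site can have a lower average than a site ranked after it. The bound was 0.354 RPM at the far upstream site of Pck1 and the same at the shared site of Ppargc1a, so that the fasted height was at most 1.60-fold the re-fed height at each. At the nearer upstream site and the start site of Pck1 the bounds were 0.260 and 0.212 RPM, with ratios of at most 2.73 and 4.56. At the fasted-only Ppargc1a site the bound was 0.118 RPM, and the ratio could have been as high as 8.40. The bounds rest on few sites. Without the 10 sites that gave the largest bounds, they were 0.212 RPM at the far upstream site of Pck1 and at the shared site of Ppargc1a, and 0.118 RPM at the Pck1 start site. At the fasted-only site of Ppargc1a the bound was then 0, which sets no limit. The bounds limit a decrease after re-feeding without showing that there was one.

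**Figure D3:**
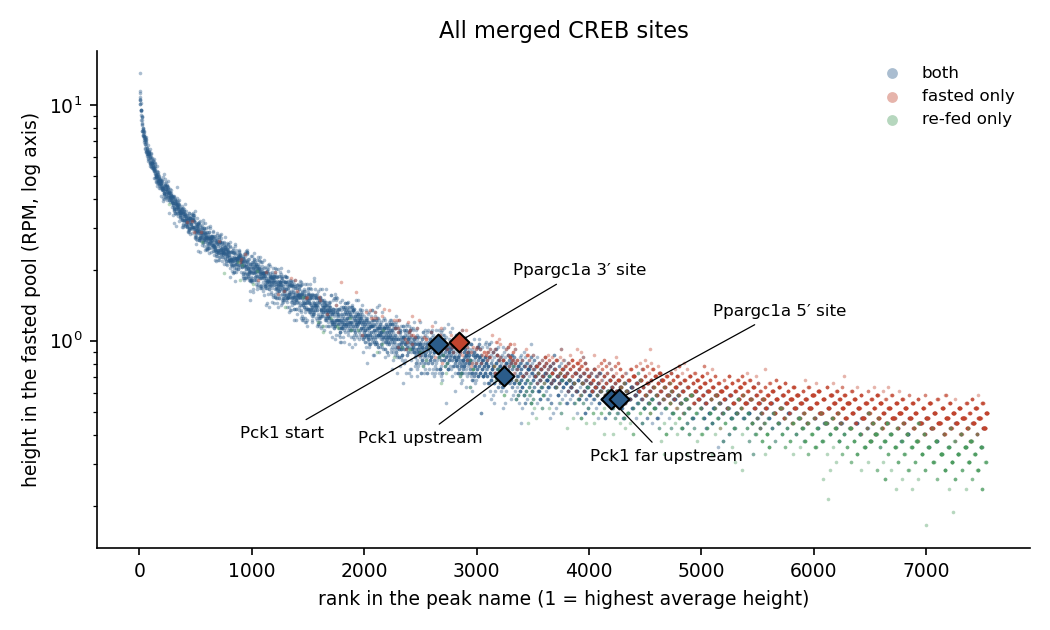
Fasted height in RPM (vertical log axis) against the rank in the peak name (horizontal axis, 1 is the highest average) for all 7547 sites, coloured by call, with the 5 members as diamonds. The members ranked from 2657 to 4270, and the fasted-only Ppargc1a site (3′ site) lay in the upper part of the band at its rank, below 15 of the 200 sites nearest in rank.

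The width of a shared site shows how far apart the fasted and re-fed peaks were placed. Every fasted-only site was 111 bp wide and every re-fed-only site 109 bp, so a wider merged site gives the offset between the centres of its peaks. At the Pck1 start site the merged width was 111 bp, with centres no more than 1 bp apart, as at 330 shared sites (7.10%). The offset was 10 bp at the nearer upstream site of Pck1, close to the median of 12.0 bp over shared sites. It was 69 bp at the far upstream site of Pck1, and 109 of 4645 shared sites (2.35%) were at least as wide. At the shared site of Ppargc1a it was 56 bp, with 226 sites (4.87%) at least as wide. Both widely offset members had a fasted height of 0.567 RPM, a stack of 24 reads.

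G6pc had a row in the gene table with no CREB site listed for it. In RefSeq the genes around it on chromosome 11 run Psme3, Aoc2, Aoc3, G6pc, Aarsd1, Ptges3l and Rundc1. The nearest sites with a gene name in this stretch were assigned to Psme3, which encodes a proteasome activator subunit, and to Rundc1. The Psme3 site, at 101131987 to 101132111, was called in both lists at 4.23 RPM (179 reads) with rank 262. The Rundc1 site, at 101241110 to 101241227, was called in both lists at 1.13 RPM (48 reads) with rank 1791.

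These sites were 109 kb apart, and the one site between them was assigned to no gene. That site, at 101195035 to 101195145, was called in the fasted list only at 0.472 RPM (20 reads), with rank 7343 and 12.6% of all sites lower. It was 63.0 kb from the Psme3 site and 46.1 kb from the Rundc1 site. Its distance from G6pc was not computed, since the row used for G6pc gives no mm8 gene coordinates and RefSeq is in GRCm38. Hence the only listed peak between the flanking genes of this stretch was a low fasted-only one, and the absence of a named G6pc site does not show an absence of CREB.

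The members were set beside 49 other genes of the pathway, which comprised 20 enzymes, 27 regulators and 2 glycolytic genes. Of these, 20 had a row in the shortened copy of the gene table used here, none of them glycolytic, and 17 of the 20 had at least 1 site. Part of that table lists only genes with a CREB site, so these counts of genes are not read as a frequency. The 29 genes without a row were not analysed here. The sites of the 17 genes numbered 28, of which 17 (60.7%) were called in both lists, 8 in the fasted list only and 3 in the re-fed list only. Their median height was 0.885 RPM, against 0.708 RPM for the members and for all sites.

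Few enzymes of the pathway could be set beside Pck1 and G6pc, as 3 of 20 had a row. Tat, the tyrosine aminotransferase that starts tyrosine breakdown, had 1 site in both lists at 0.661 RPM. Got1, the cytosolic aspartate aminotransferase, had a fasted-only site at 0.543 RPM and a re-fed-only site at 0.260 RPM. Sds, serine dehydratase, had none. The Pck1 start site, at 0.968 RPM, was higher than each of these.

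The regulators are the genes to which Ppargc1a belongs by function. Of 17 regulators with a row, 15 had a site, and 16 of their 25 sites (64.0%) were called in both lists, with a median of 0.968 RPM. Sik1, a kinase that keeps the CREB coactivator CRTC2 out of the nucleus, had the highest site at 3.09 RPM, called in both lists. Dusp1, a MAP kinase phosphatase, reached 2.60 RPM in both lists, and the nuclear receptor genes Nr4a2 and Nr4a3 reached 2.03 and 1.96 RPM, each in both lists. The second sites of these genes were a shared site at 0.449 RPM at Sik1, a fasted-only site at 0.472 RPM at Nr4a2 and a shared site at 1.65 RPM at Nr4a3. The highest site of Ppargc1a, at 0.991 RPM, was lower than the highest sites of these genes. It was higher than the highest sites of Ppara (0.968 RPM), the insulin receptor substrate Irs2 (0.873 RPM), Nr4a1 (0.708 RPM) and Foxa2 (0.614 RPM). The highest sites of all other regulators with a site were higher than that of Ppargc1a.

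Other regulators of the pathway also had shared sites. Crtc2, the CREB coactivator itself, had shared sites at 1.58 and 0.897 RPM, and Creb1, which encodes CREB, had one at 1.35 RPM. Klf9, a zinc finger factor, had a shared site at 1.42 RPM and a re-fed-only site at 0.543 RPM. Ppara, the nuclear receptor of hepatic fatty acid oxidation, had a shared site at 0.968 RPM and a fasted-only site at 0.472 RPM, and Cebpd, a leucine zipper factor, had a shared site at 1.11 RPM. At Ppara the shared site was listed as the higher of the pair, and at Ppargc1a the fasted-only site was.

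Fasted-only calls without a shared site at the same gene were found at 2 of the regulators. Nr4a1, another nuclear receptor of that family, had 1 site at 0.708 RPM, and 98.5% of sites of like rank were lower in the fasted pool. Foxa2, a forkhead factor of the liver, had 1 site at 0.614 RPM, with a share of 71.0%. At the fasted-only site of Ppargc1a the share was 90.5%, between those of Nr4a1 and Foxa2. The share was 100% at the shared sites of Pdk4, a kinase that inhibits pyruvate dehydrogenase, and Trib3, a pseudokinase that inhibits AKT, whose heights were 1.42 and 1.18 RPM. A re-fed call was therefore present at sites whose fasted height stood further above their rank than at Ppargc1a.

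Cebpb and Irs2, with 3 sites each, were the regulators that matched Pck1 in number of sites. At Cebpb, a leucine zipper factor of the fasting liver, 1 of 3 sites was shared, at 1.86 RPM, and the others were fasted-only at 0.755 and 0.496 RPM. At Irs2 the calls were divided into 1 shared, 1 fasted-only and 1 re-fed-only site, at 0.873, 0.708 and 0.378 RPM. Pck1 differed from both in that all its sites were called in both lists. Foxo1, a forkhead factor restrained by insulin, and Igfbp1, a secreted binding protein for insulin-like growth factors, had a row but no site, as G6pc had none.

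**Figure D4:**
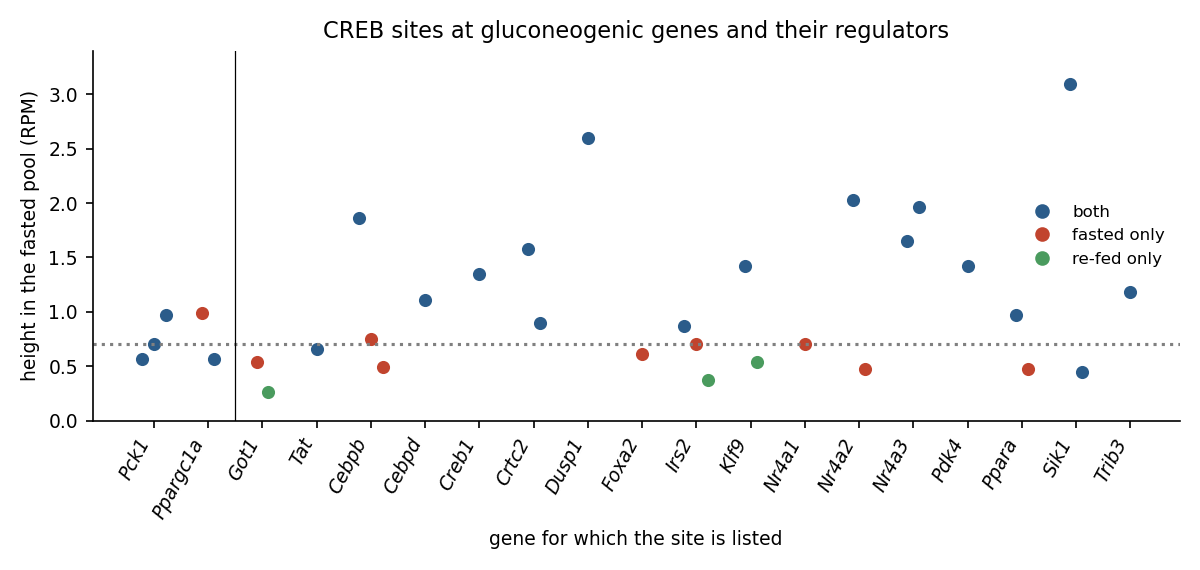
Fasted height in RPM (vertical axis) of every listed CREB site of Pck1 and Ppargc1a (left of the line) and of the 17 other genes with a site (horizontal axis, by gene), coloured by call, with the median of all sites (0.708 RPM) dotted. The members lay between 0.567 and 0.991 RPM, and the other genes between 0.260 RPM (Got1) and 3.09 RPM (Sik1).

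Of the 17 other genes with a site, 14 had a promoter window in RefSeq, and 9 of these (64.3%) held TGACG or CGTCA, against 23.0% of all 27025 genes. These genes were kept because they had a CREB site, and no comparison with all CREB-bound genes was made. Their sites were not placed relative to the windows. Pck1 and Ppargc1a, which had CREB sites, held CGTCA, and G6pc, which had none, did not. For Ppargc1a it was not established that the window includes either site. Letters and sites did not always coincide among the other genes, since Pdk4, Creb1, Got1, Irs2 and Tat had a listed site and no TGACG or CGTCA in the window.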

How the data were processed

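CREB ChIP-seq was performed in 10 livers, 5 fasted and 5 re-fed, and groups were taken from the sample labels. The authors mapped reads to mm8 with Eland, discarded redundant reads within each replicate and pooled the replicates of a condition. Peaks were called with HOMER 3.0 (version per the submitters' processing notes) at 5% FDR, and kept when found in every pool of 4 livers and above an average height of 0.35 RPM. The deposited heights are in RPM, as the highest pile of reads, each extended to 108 bp, scaled to the pooled reads. They are whole numbers of reads (deviation at most 1.5e-09 reads) of a pool of 42363292 reads, and are identical at all 4645 shared peaks. Stack heights are not counts of reads in a peak, and conditions were pooled, so no count test was run.

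The fasted list (6835 peaks) and the re-fed list (5357) were joined by peak name, and all 4645 shared peaks have the same interval in both. From the published tables peak centres, gene names, the Pck1 start and its transcript length were taken for the results. Heights there served only to check the rank: the order of averages in the 1525 rows used was checked against the rank in the peak names with 0 neighbouring pairs out of order. In these rows the average was the mean of the pooled heights of both conditions to within 2.0e-05 RPM, and the other rows were taken to follow the same rule. The gene table used was a shortened copy. Named genes are the members, every gene of the lists with a row in that table, and the neighbours of G6pc. A further gene of the lists is not reported here and is left out of every count. The members and lists were chosen with earlier results of these data known. The comparison at equal fasted height and the match with 2 mismatches were added after seeing the data. The code for the rank bound and the shares was run on simulated sites ranked by their average height, where the bound holds by construction. Alternatives covered the overlap rule, height filters, the rank window, the sites behind each bound, the neighbour distance and the motif definition. The series also has 1 GR and 1 CEBPB library, not analysed here. Scripts ran in Python 3.11.15 with pandas 2.3.3, numpy 2.4.6, matplotlib 3.10.9 and scipy 1.17.1.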

Additional observations from a re-analysis of the deposited data

How the results depend on the processing

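Of 67 alternative values, 45 stayed within the counting error or rounding of the reported value, 22 moved and 0 reversed. The rules of reciprocal overlap and nearest centre could change no value, because all 4645 shared peaks have the same interval in both lists. With each list restricted to its higher peaks, from the median upwards, 2 member sites were left, of which 1 was called in both lists, and the share of all sites called in both rose to 75.2%. It was 65.0% when peaks up to 500 bp apart were merged. At equal fasted height, the share of sites ranked before the member was 15.7% at the nearer upstream site of Pck1 and 13.9% at the shared site of Ppargc1a. It was counted among the alternatives to the share lower at like rank (25.0% and 19.0%). It is another quantity, so only the direction, which was the same, can be compared. The lower bounds of the re-fed height rest on few sites: without the 10 sites that gave the largest bounds, they were 0.212 RPM at the far upstream and nearer upstream sites of Pck1, 0.118 RPM at its start site, 0 at the fasted-only site of Ppargc1a (no limit) and 0.212 RPM at its shared site. Counting each other gene once by its highest site, 82.4% of 17 sites were called in both lists. The share of promoter windows with a CRE match was 12.5% with at most 1 mismatch to the palindrome, 61.1% with at most 2 mismatches, and 17.8% with TGACG or CGTCA before the start. The values of 24 to 42 reads at the members limit all comparisons of height. Leaving out each mouse was not run, since heights per mouse in the published tables were not used here. No paired analysis was possible because the fasted and re-fed livers came from different mice.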
